A study of Mus musculus with 4 samples.

Results

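The receptors of the TGF-beta superfamily were examined in C2C12 cells, mouse myoblasts of an established line able to form myotubes, that differentiated with or without follistatin. The members were taken by gene name: every non-control probe of the array named Acvr1, Acvr1b, Acvr2a, Acvr2b, Acvrl1, Bmpr1a, Bmpr2, Tgfbr1, Tgfbr2 or Tgfbr3. These 10 genes had 17 probes among the 41174 probes of the array. Testing required the scanner software's flag for a signal well above background on 3 or more of the 4 arrays in one channel. That left 13 probes of 9 receptor genes among 17848 features, where a feature is a gene, stood for by its brightest tested probe, or a probe without a gene name. Acvrl1 was the gene without a tested probe.

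All cultures were C2C12 myoblasts grown to 80% confluence and harvested on day 6 of differentiation. The treated cultures received recombinant human follistatin 288 at 200 ng/ml, renewed every 24 h, and the control cultures none. The differentiation serum is given as 2% horse serum in one part of the labels and as 10% in another. The labels describe a single cell line and 4 biological replicates, without saying that these were separate cultures, so the errors measure the spread between these samples. Each replicate was 1 two-colour array. The dye labels put the treated sample in Cy3 and the untreated sample in Cy5 on all 4 arrays, while the descriptions call each a dye swap. The direction of every ratio rests on these dye labels. With 1 orientation, a dye effect particular to a probe adds to its ratio.

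Ligands of this superfamily bind a pair of type II receptors, constitutively active serine/threonine kinases, which phosphorylate a pair of type I receptors. The type I receptors then phosphorylate Smad proteins: Acvr1b and Tgfbr1 pass the signal to the Smads of the activin branch, Acvr1, Bmpr1a and Acvrl1 to those of the BMP branch. Type III receptors bind ligand without a kinase of their own and present it. Follistatin acts upstream of the receptors of the ligands it binds outside the cell, which are activins, myostatin and some BMPs. In muscle the myostatin signal limits growth.

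Shown here are 4 probes that had a reading frame without a stop codon and either crossed an intron or lay in a complete coding sequence record. They were the only probes of Acvr2b and Acvrl1 and the dimmer tested probes of Tgfbr1 and Tgfbr2. Each is 60 bases long and is written as the scanner file gives it, with no base marked.
Acvr2b, A_52_P422618: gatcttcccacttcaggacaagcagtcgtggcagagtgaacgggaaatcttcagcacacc
Acvrl1, A_52_P279329: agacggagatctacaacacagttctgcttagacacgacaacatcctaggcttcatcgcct
Tgfbr1, A_51_P280137: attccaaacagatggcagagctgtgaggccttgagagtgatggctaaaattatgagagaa
Tgfbr2, A_52_P251403: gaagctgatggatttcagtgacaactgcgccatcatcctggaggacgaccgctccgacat
In mm9, the build of the file headers, the Acvr2b probe lay on chromosome 9 from 119337671 to 119339026, plus strand. The Acvrl1 probe lay on chromosome 15 from 100967514 to 100967806, plus strand. The Tgfbr1 probe lay on chromosome 4 from 47419898 to 47423556, plus strand. These spans of 1356, 293 and 3659 bases exceed the length of the probe, so each probe crosses at least 1 intron. The Tgfbr2 probe lay on chromosome 9 from 116019196 to 116019255, minus strand, within a transcript record described as a complete coding sequence. The brightest probes of the other genes are given by position alone. On the minus strand, they were those of Acvr1 (chr2:58299596-58299655), Bmpr1a (chr14:35224339-35224398), Tgfbr2 (chr9:115997155-115997214) and Tgfbr3 (chr5:107537905-107537964). On the plus strand, they were those of Acvr1b (chr15:101043956-101044015), Acvr2a (chr2:48755621-48755680), Bmpr2 (chr1:59927276-59927335) and Tgfbr1 (chr4:47427421-47427480). Exon and UTR annotation of mm9 was not used here.

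Slide 1 carried replicates 1, 2 and 3, and slide 2 carried replicate 4. Between 61.1% and 69.4% of non-control spots were well above background in a channel. Ratios are log2 of the follistatin over the untreated signal, minus the median over all features of that array, which was -0.060, -0.022, -0.016 and 0.0053 for replicates 1 to 4. Across features, which are not independent replicates, replicates 2 and 3 correlated at r = 0.81 (rho = 0.79), and r ranged from 0.079 to 0.27 in the other 5 pairs. For the receptors, the root mean square difference of the ratios was 0.27 between replicates 2 and 3 and 0.54 to 0.83 between the other pairs. Tests with 4 arrays treat these 2 as separate replicates, and whether they are was not tested.

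None of the 9 receptor genes passed the test. Limma's test of the ratio against 0, with Benjamini-Hochberg adjustment over all 17848 features, called 2 features, 0.0112% of those tested. Both were lower with follistatin: the odorant receptor Olfr1299 and the carboxylesterase Ces3b. At an unadjusted p under 0.05, limma gave 0 of the 9 receptor genes, each read by its brightest tested probe, against 20.9% of all features (10.3% higher and 10.7% lower). A mean past 1.6-fold, the minimum of the authors' selection, was found for 0 of 9, against 14% of features. The methods' t-test compared the 2 channels as separate groups, without pairing them by array. It gave 2 of the 9 at that unadjusted level, Acvr1b and Tgfbr2, against 19.6% of all features, and 0 after adjustment. With normexp background correction and loess normalization, limma gave 4 of the 9 at the unadjusted level, Acvr1, Acvr1b, Bmpr1a and Tgfbr2, against 19.5% of all features, and with array weights 4, Acvr1, Acvr1b, Bmpr2 and Tgfbr3, against 42.4%. An offset of 50 on the signals gave 2, Acvr1 and Acvr1b, against 21%, and leaving out replicate 4 gave 2, Acvr1b and Tgfbr3, against 26.6%. None of these passed after adjustment. The receptors lay on both sides of no change, with 4 positive and 5 negative mean ratios between -0.42 and 0.32. Their median was -0.0015, beside 0.0054 over all features. By array, the median of the 9 was 0.022, 0.16, -0.016 and 0.059, and 6, 6, 4 and 5 of them were positive on replicates 1 to 4.

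**Figure D1:**
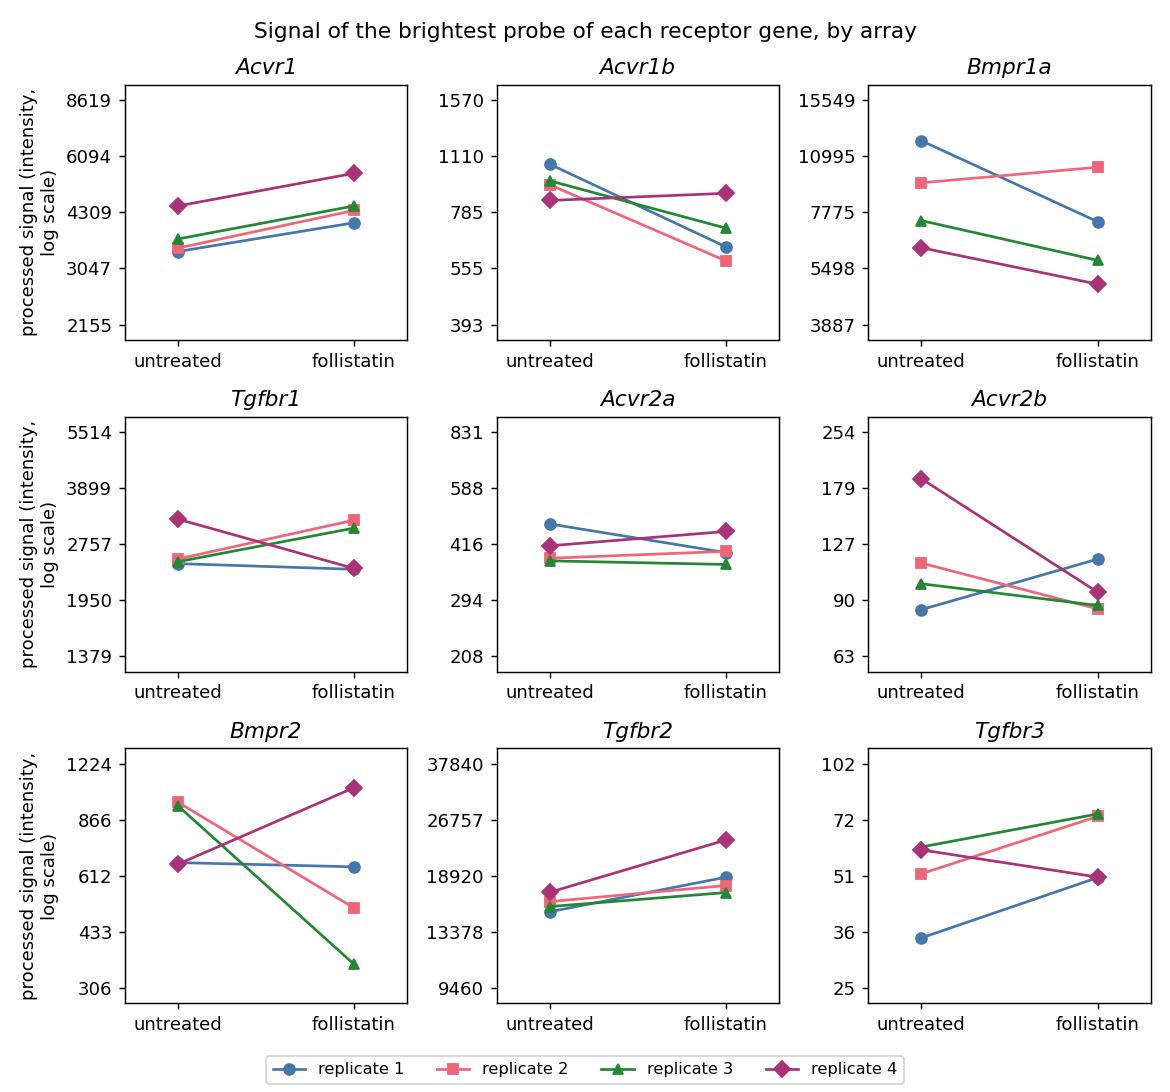
Processed signal (intensity, log2-spaced axis) of the brightest tested probe of each of 9 receptor genes, untreated at left and follistatin at right, 1 line per array; each panel has its own axis, since signals of different probes are not comparable. The 4 lines of Acvr1 run upward in parallel, while those of Bmpr2 diverge from a narrow untreated range of 658 to 967 to a follistatin range of 355 to 1056.

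Among the type I receptors, Acvr1 (ALK2), a BMP receptor, had the most even ratio of the family. The follistatin signal of its only probe was 4042, 4362, 4485 and 5489 on replicates 1 to 4, and the untreated signal was 3383, 3455, 3656 and 4484. Follistatin was higher on every array, but the ranges overlapped, because replicate 4 was bright in both channels. The ratios were 0.32, 0.36, 0.31 and 0.29, a mean of 0.32 ± 0.030 (SD, n = 4). An SD higher than this was found in 99.9% of the 17848 features. Limma, which draws the spread of each gene towards that of all genes, gave a standard error of 0.15 and an adjusted p of 0.27. The fold was 1.25, with a 95% interval of 0.976 to 1.59.

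Acvr1b (ALK4), the type I receptor of activins and myostatin, had the lowest mean ratio. Its signal with follistatin was 635, 582, 713 and 884, against 1059, 932, 955 and 845 without. Follistatin was below untreated on replicates 1, 2 and 3 and just above it on replicate 4, so that the ranges overlapped through that array. The mean ratio was -0.42 (SE 0.19, n = 4), with ratios of -0.68, -0.66, -0.41 and 0.059, and the adjusted p by limma was 0.26. This is 0.747-fold, with an interval of 0.547 to 1.02. Without replicate 4 the mean was -0.58. A second Acvr1b probe was well above background on 1 array in the untreated channel and on 0 in the follistatin channel, and was not tested.

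Tgfbr1 (ALK5), the TGF-beta type I receptor, which myostatin also uses, was split between arrays. Its brighter probe read 2361, 3199, 3045 and 2374 with follistatin and 2445, 2515, 2473 and 3220 without. The untreated signals of slide 1 stayed within a narrow range, and that of replicate 4 stood above them. The ratios of 0.0095, 0.37, 0.32 and -0.45 gave a mean of 0.062 (SE 0.19, n = 4; adjusted p = 0.87 by limma), 1.04-fold with an interval of 0.756 to 1.44. The mean turned negative without replicate 2 (-0.040) and without replicate 3 (-0.022).

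Bmpr1a (ALK3), a BMP type I receptor, gave opposite readings on its tested probes. The brighter probe read 7343, 10281, 5781 and 4990 with follistatin and 12114, 9337, 7392 and 6250 without. Follistatin was lower on 3 arrays and higher on replicate 2, and the groups overlapped widely. Its ratios of -0.66, 0.16, -0.34 and -0.33 gave a mean of -0.29 (SE 0.19, n = 4; adjusted p = 0.40 by limma), 0.816-fold with an interval of 0.599 to 1.11. The mean was -0.17 without replicate 1 and -0.44 without replicate 2.

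Acvrl1 (ALK1), a receptor best known from endothelial cells, had a single probe, and neither the treated nor the untreated channel of any array was well above background there. Of 6 endothelial markers, Pecam1, Cdh5, Kdr, Tie1 and Emcn were likewise below that level, and Tek alone was tested. No fold is given for Acvrl1.

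The type II receptors of activins and myostatin were Acvr2a and Acvr2b. The brighter Acvr2a probe read 395, 398, 367 and 450 with follistatin and 471, 381, 375 and 412 without. The 2 groups covered almost the same range. From ratios of -0.20, 0.083, -0.016 and 0.12, the mean was -0.0015 (SE 0.15, n = 4; adjusted p = 0.996 by limma), 0.999-fold with an interval of 0.772 to 1.29. The sign of this mean turned in 5 of the 14 alternatives that could move it.

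Acvr2b, a type II receptor that binds myostatin strongly, was read by a single dim probe. Its signal was 116, 85.0, 86.8 and 94.3 with follistatin and 84.6, 113, 99.3 and 190 without. Follistatin was higher on replicate 1 and lower on the other arrays, and replicate 4 held the highest untreated signal. The ratios were 0.51, -0.39, -0.18 and -1.02. Their mean of -0.27 (SE 0.26, n = 4; adjusted p = 0.57 by limma), or 0.831-fold with an interval of 0.539 to 1.28, became -0.018 without replicate 4 and -0.53 without replicate 1. With normexp background correction and loess normalization it was -0.12.

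Bmpr2, the BMP type II receptor, varied most between arrays. It read 648, 503, 355 and 1056 with follistatin and 665, 967, 946 and 658 without. On replicates 2 and 3 the treated cells had the lower signal, on replicate 4 the higher one, and on replicate 1 the channels were nearly equal. The ratios were 0.022, -0.92, -1.40 and 0.68, and their SD of 0.93 was exceeded by 7.7% of features. The mean was -0.41 (SE 0.35, n = 4; adjusted p = 0.53 by limma), with a fold interval of 0.422 to 1.35. It was -0.074 without replicate 3, -0.77 without replicate 4 and 0.35 with replicates 1 and 4 alone.

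Tgfbr2, the TGF-beta type II receptor, was the other gene with a positive ratio on every array. The brighter probe read 18772, 17833, 17071 and 23625 with follistatin and 15152, 16139, 15655 and 17094 without. The ranges all but separated: the lowest follistatin signal, on replicate 3, lay just under the highest untreated one, on replicate 4. The ratios of 0.37, 0.17, 0.14 and 0.46 gave a mean of 0.28 (SE 0.16, n = 4; adjusted p = 0.34 by limma), or 1.22-fold with an interval of 0.939 to 1.58. A ratio of 1 sign on all 4 arrays was found for 2 of the 9 receptor genes, against 29.3% of the features with 4 values. In both, Acvr1 and Tgfbr2, it was positive, against 14.4% of features. Negative ratios on all 4 were found for 0 of 9, against 14.9%. Signals of the 2 groups that did not overlap were found for 0 of 9, against 13.9%.

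The type III receptor Tgfbr3, betaglycan, which presents TGF-beta to Tgfbr2 and inhibin to the activin receptors, was dim. Its probe read 50.4, 73.6, 74.7 and 50.6 with follistatin and 34.7, 51.6, 60.9 and 59.8 without. Follistatin was higher on replicates 1, 2 and 3 and lower on replicate 4. The ratios were 0.60, 0.53, 0.31 and -0.25. Their mean was 0.30 (SE 0.20, n = 4; adjusted p = 0.41 by limma), or 1.23-fold with an interval of 0.887 to 1.71, but only 0.053 with normexp and loess. Without replicate 4 it was 0.48, and without replicate 1 it was 0.20.

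**Figure D2:**
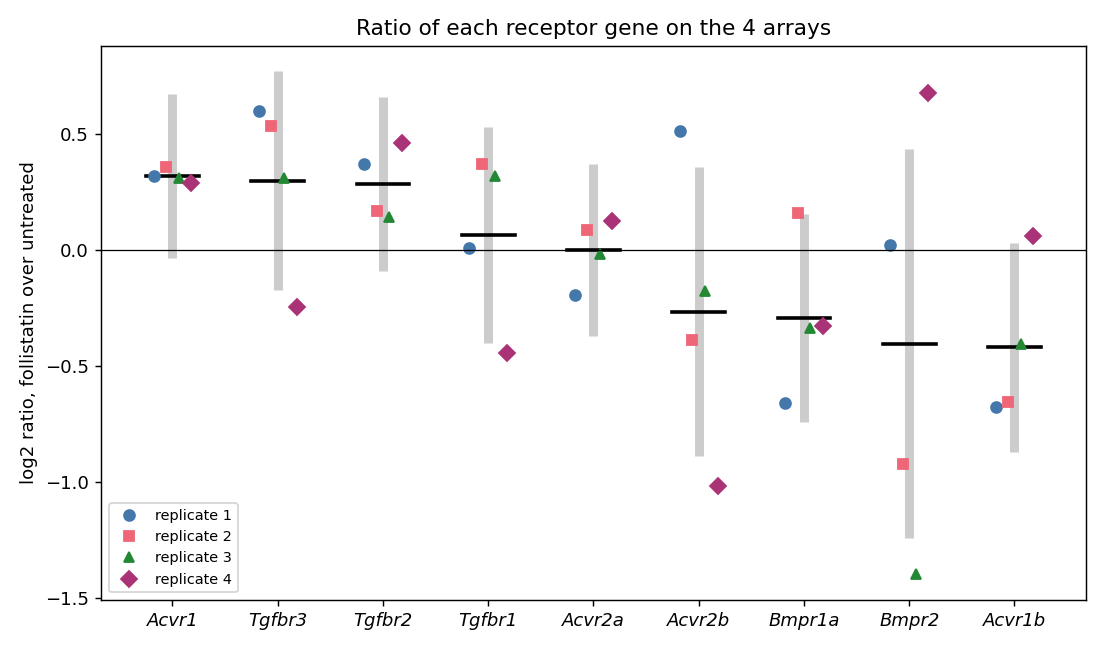
Log2 ratio of follistatin over untreated for each of 9 receptor genes: points are the 4 arrays, black bars the mean and grey bars the 95% interval of limma. Every grey bar crosses 0; Acvr1 has the tightest points (SD 0.030) and Bmpr2 the widest (SD 0.93).

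The intervals show which sizes of change the 4 arrays leave possible. A change of 1.6-fold lay outside the interval of the brightest probe in both directions for 4 receptor genes: Acvr1, Tgfbr1, Acvr2a and Tgfbr2. The dimmer tested probes did not share this limit: their intervals ran from 1.13 to 2.13 for Acvr2a, 0.704 to 2.19 for Tgfbr1 and 0.789 to 3.01 for Tgfbr2, each holding 1.6-fold. For the other 5, Acvr1b, Bmpr1a, Acvr2b, Bmpr2 and Tgfbr3, a change of that size in at least 1 direction lay within the interval of the brightest probe. The interval of the dimmer Bmpr1a probe ran from 1.04 to 1.96. This interval and that of the dimmer Acvr2a probe, neither adjusted for the number of probes, lay above 1. With replicates 2 and 3 averaged into 1, intervals inside 1.6-fold were left for Acvr2a (0.692 to 1.42) and Tgfbr1 (0.650 to 1.47). That of Acvr1 then ran from 0.877 to 1.76. The median SD of the 9 genes was 0.34, beside 0.40 over all features.

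**Figure D3:**
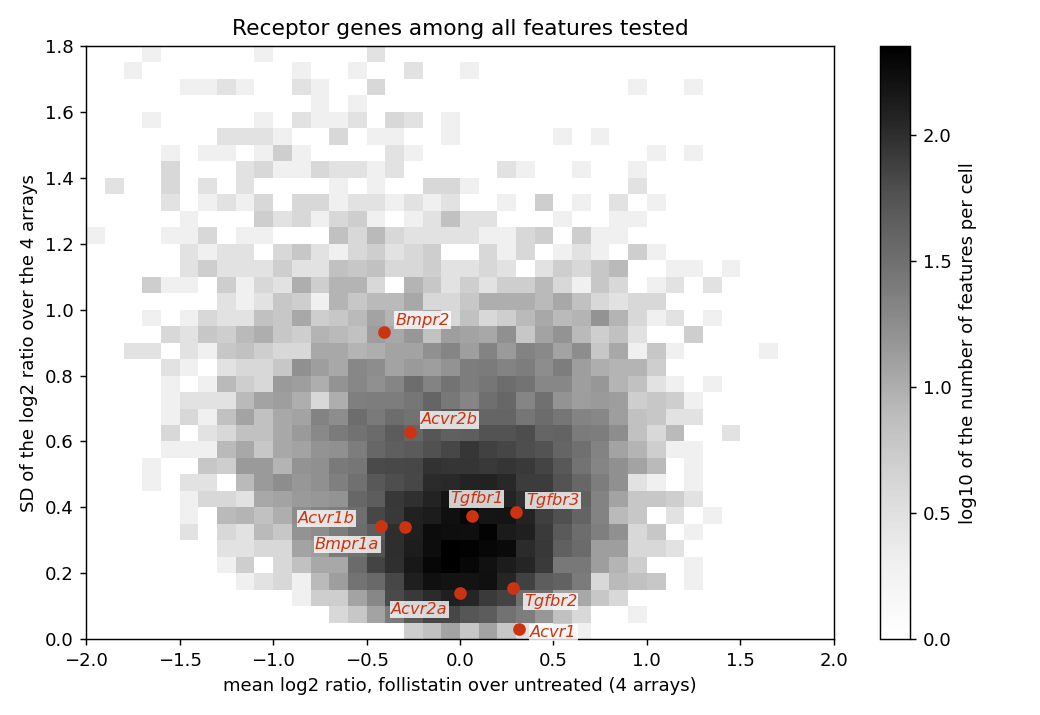
Mean log2 ratio over 4 arrays (x axis) against its SD (y axis) for all 17848 features as shaded cells, darker where more features lie, with the 9 receptor genes in red; the axes leave out the most extreme features. Acvr1 sits at the lower edge of the cloud (mean 0.32, SD 0.030), Bmpr2 near its upper part (mean -0.41, SD 0.93), and the others within it.

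Of the receptor genes, 4 had 2 tested probes, and these did not always read alike. For Bmpr1a, the dimmer probe, 3351 bases upstream in the same transcript record, read 205, 320, 283 and 227 with follistatin and 189, 179, 173 and 184 without. Here the groups did not overlap, as was found for 13.9% of all features with 4 values. The dimmer probe had a mean ratio of 0.51, while the brighter one was at -0.29. The dimmer probe was higher than the brighter one on 4 of 4 arrays, by 0.81 ± 0.19 (SD, n = 4) on the log2 scale. For Acvr2a, the dimmer probe, 1703 bases downstream, read 244, 437, 332 and 373 with follistatin and 158, 212, 255 and 284 without. Follistatin was higher on each array, and the ranges overlapped. Its mean ratio was 0.63, again above the brighter probe on 4 of 4 arrays, by 0.64 ± 0.35 (SD, n = 4).

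The probes of Tgfbr1 and Tgfbr2 shown above were dim and erratic. That of Tgfbr1, 3924 bases upstream of the brighter probe, had ratios of 1.34, -0.77, 0.027 and 0.65. That of Tgfbr2 had ratios of 2.00, -0.36, 1.01 and -0.15. On replicate 1 its untreated signal was 36.1, against 84.3 to 105 on the other arrays. With every probe tested on its own among 27017 tested probes, a fit added after the data were seen, none of the 13 receptor probes passed. The lowest adjusted p by limma was 0.16, for the dimmer Acvr2a probe, and the next 0.21, for the dimmer Bmpr1a probe. Their unadjusted p by limma was 0.014 and 0.034, and 20.9% of all tested probes were under 0.05.

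In an exact sign-flip permutation test of the difference between the probes of a gene, two-sided, the p was 0.125 for both Bmpr1a and Acvr2a, the smallest that 4 arrays allow, 0.875 for Tgfbr1 and 0.625 for Tgfbr2. Adjusted over these 4 comparisons by Benjamini-Hochberg, the smallest was 0.25. Such disagreement was common on these arrays. Of 6220 genes with at least 2 tested probes, the brightest probes had mean ratios of opposite sign in 38.8%. The dimmer of them was higher on all 4 arrays in 15.8%. A mean difference larger than that of Bmpr1a was found in 15.3%.

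**Figure D4:**
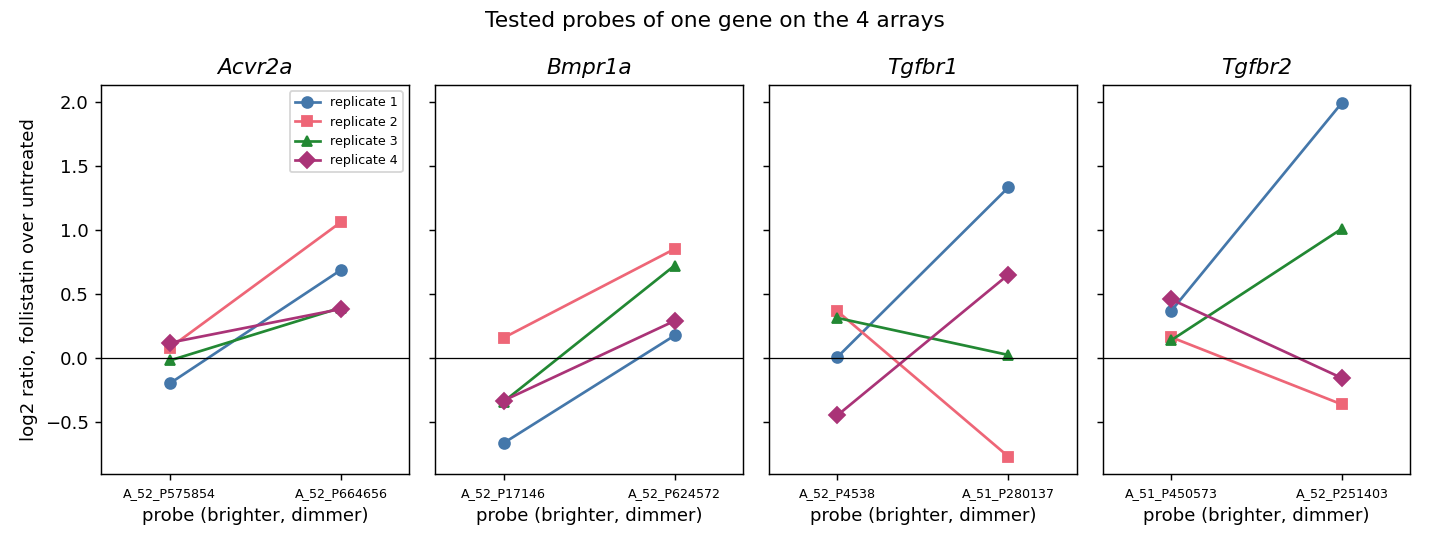
Log2 ratio of follistatin over untreated on the brighter (left) and dimmer (right) tested probe of Acvr2a, Bmpr1a, Tgfbr1 and Tgfbr2, 1 line per array. All 4 lines run upward for Acvr2a and Bmpr1a (mean differences of 0.64 and 0.81), while those of Tgfbr1 and Tgfbr2 cross.

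The likeness of patterns was measured as the root mean square difference of the 4 ratios. Within the family, Acvr1 and Tgfbr2 were nearest to each other, at 0.16. The nearest to Tgfbr3 was Acvr1 at 0.31, and the nearest to Tgfbr1 was Tgfbr3 at 0.32. Bmpr2 had no close neighbour in the family, its nearest being Acvr1b at 0.69. Among 94 other genes of the pathway, the nearest was Smad5 for Acvr1 (0.12), Rgmb for Tgfbr2 (0.14), Smurf2 for Tgfbr1 (0.12), Usp15 for Tgfbr3 (0.15) and Tgif2 for Acvr1b (0.16). It was Nodal for Acvr2a (0.079), Smad4 for Bmpr1a (0.20), Chrd for Acvr2b (0.30) and Junb for Bmpr2 (0.26). With 4 arrays and 94 candidates, these distances are descriptions.

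The remaining genes of the pathway were taken as fixed lists, and none of their tested members passed limma's test in either direction. Of 16 other receptors and co-receptors, 13 were tested, with 5 positive and 8 negative ratios. Acvr1c, the activin type I receptor ALK7, was not above background, and Bmpr1b, a BMP type I receptor, was at 0.23 (SE 0.19, adjusted p = 0.49). The co-receptor Tdgf1 (Cripto) was at -0.54 (SE 0.16, adjusted p = 0.14) and the BMP co-receptor Rgmb at 0.38 (SE 0.16, adjusted p = 0.24). With loess these were at -0.12 and 0.19.

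Proteins that bind the receptors or control their turnover had 24 tested members, 15 positive and 9 negative, with a median of 0.16. Tgfbrap1, which binds TGF-beta receptors, had a ratio of -1.55 (SE 0.27, adjusted p = 0.087), negative on 4 of 4 arrays. Xiap, an inhibitor of apoptosis that also binds BMP receptors, was at 1.00 (SE 0.18, adjusted p = 0.089) and positive on 4 of 4. With loess they were at -0.80 and 0.50, the same direction at a smaller size.

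Of 27 ligands, 17 were tested, 6 positive and 11 negative, with a median of -0.11. By limma, the subunit of activin A, Inhba, had a ratio of -0.50 (SE 0.19, adjusted p = 0.21), and Tgfb2 one of -0.69 (SE 0.29, adjusted p = 0.24). Tgfb2 was positive on replicate 4, at 0.35, and negative on the other arrays. Mstn, myostatin, was not above background. Among 13 tested ligand antagonists the median was 0.30, or 0.091 with loess, and 9 were positive. Bgn, biglycan, was at 1.07 (SE 0.42, adjusted p = 0.22), where replicate 1 stood at 2.78 and the remaining arrays between 0.29 and 0.61, and the BMP antagonist Chrdl1 was at 0.49.

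Downstream, 9 Smads and co-repressors had 3 positive and 6 negative ratios. By limma, the common Smad4 was at -0.36 (SE 0.15, adjusted p = 0.25) and the BMP-branch Smad1 at -0.85 (SE 0.40, adjusted p = 0.28). The Smad1 ratios were -0.29, -1.78, -1.75 and 0.41 on replicates 1 to 4. The 13 tested genes responsive to Smad2/3 had a median of 0.071, with the latent TGF-beta binding protein Ltbp2 at 0.54 and the collagen Col3a1 at 0.50. The 10 tested BMP-responsive genes had a median of -0.024, or 0.0046 with loess. Of these, the ratio of Id1, an inhibitor of bHLH factors, was -0.74 (SE 0.27, adjusted p = 0.19 by limma). Id1 was positive on replicate 4, at 0.22, and negative on the other arrays. The ratio of Smad7, an inhibitory Smad that also stood in other lists, was -0.42.

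**Figure D5:**
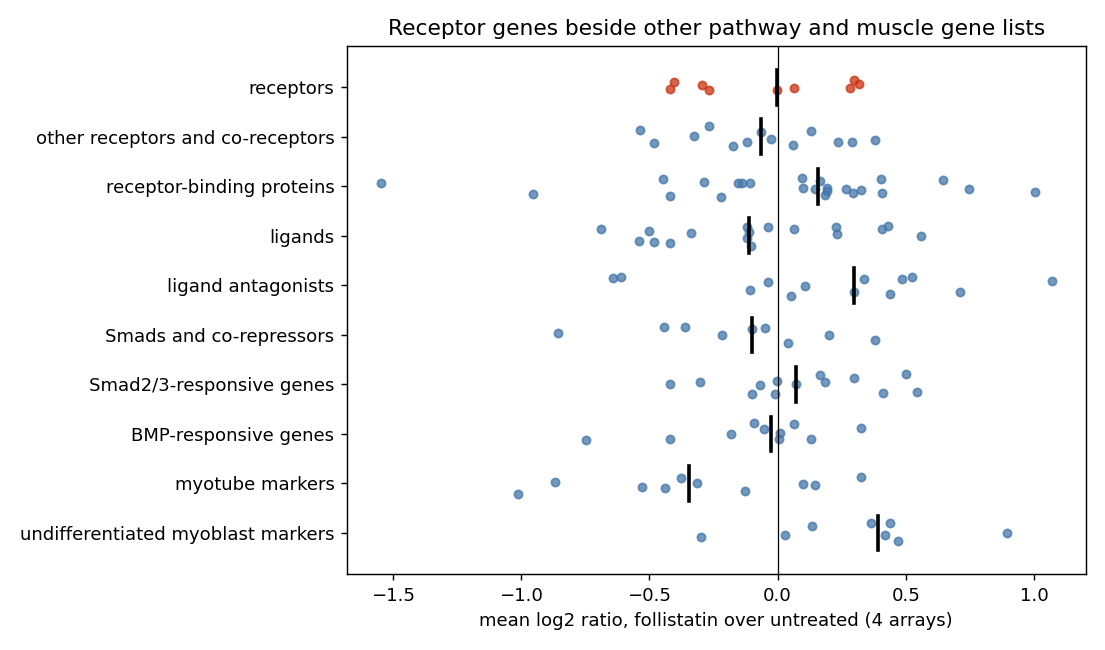
Mean log2 ratio over 4 arrays (x axis) of each tested gene in the receptor list (red) and in 9 other lists (blue), with the median of each list as a black bar and points spread vertically for visibility. The receptor median lies at -0.0015 and no receptor gene is past -0.42 or 0.32, while the myotube markers have a median of -0.35 and the undifferentiated myoblast markers one of 0.39.

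Markers of both undifferentiated myoblasts (all 8 listed were tested) and myotubes were detected. Of 11 listed myotube markers, 10 were on the array and all 10 were tested, with Myog, Myh3 and Ckm well above background. Of these, 3 had positive ratios, Tnnt3 (0.33), Des (0.14) and Myod1 (0.10), and 7 had negative ones. The summed signal of all 10 ran from 995375 to 1447090 with follistatin and from 1605380 to 1904350 without, ranges that did not overlap. Among single features, 13.9% had signals that did not overlap, and how often sums separate was not tested. The sums of this and the following lists add signals of different probes, which are not comparable, so the brightest probes weigh most. Myog, the regulator of terminal differentiation, was at -0.31 (SE 0.16, adjusted p = 0.31). Myh3, embryonic myosin, was at -0.53 and Ckm, muscle creatine kinase, at -0.44, both positive on replicate 1 and negative on the others. Acta1 (0.93), Des (1.81), Tnnt3 (0.91) and Myod1 (0.72) were also positive on replicate 1. Tnnc2 (-0.71), Mef2c (-1.01), Myh8 (-0.27) and Myog (-0.059) were negative there, so the arrays did not all point 1 way. The 8 undifferentiated myoblast markers, 7 of them with positive ratios, summed to between 32057 and 32615 with follistatin and between 27012 and 28773 without. The 3 tested of 5 fibroblast markers, all with positive ratios, summed to between 73419 and 126176 against 43188 to 64447; Thy1 and Tcf21 were not above background. None of these marker genes passed limma's test. In bulk RNA, fewer cells of a type and less RNA per cell cannot be told apart, and the part of such shifts in the receptor ratios was not tested. Of 5 blood cell markers 3 were tested, with sums of 369 to 568 against 382 to 629, and Ptprc and Itgam were not above background. Of 5 adipocyte markers 2 were tested, with sums of 2896 to 3088 against 2722 to 3567, and Adipoq, Fabp4 and Plin1 were not above background.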

How the data were processed

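Scans were quantified with Agilent's Feature Extraction software (10.7.3.1 in the submitters' processing notes, 10.10.1.1 for replicate 4 per the file headers). The deposited intensity values used here are processed signals, which that software corrects for background and for dye on each array; median spot and local background intensity served an alternative. The deposited log10 ratio, Cy5 over Cy3, was used to check direction. The authors' table of log2 values equals log2 of processed Cy3 over Cy5 (slope 1.00, r = 1.00) without centring, with column medians of -0.16, 0.17, 0.13 and 0.11. Detection flags of the deposited files (scored 0 or 1, unit "other") set the filter.

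Spots flagged as outliers were left out, spots of a probe averaged, and ratios centred per array. Gene names are those of the scanner file, and 0 spots were saturated. Limma 3.58.1 (lmFit, eBayes; R 4.3.3) tested each ratio against 0 at an adjusted p of 0.05. The number of arrays limits the precision. All 10 receptors and every probe were described. Of each other pathway list, the 2 tested genes of smallest p were named, and of the marker lists Myog, Myh3 and Ckm. Acvr1c, Bmpr1b, Mstn, Olfr1299, Ces3b and the other myotube markers were named outside this rule, after their values were seen. Nearest genes were found by root mean square difference. Members and lists were chosen with earlier results of these data known. Alternatives were centring, normexp (offset 50) with loess (span 0.3, 4 iterations), the authors' table, an offset, filters, probe rule, flags, array weights, slide, replicates left out and the methods' t-test, the last run without the authors' filters.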

Additional observations from a re-analysis of the deposited data

Results flagged for a closer look

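Among 39 sets of 4 values (ratio and both channel signals of the 13 tested receptor probes), 1 had an array far from the others: the log2 untreated signal of the brighter Tgfbr1 probe was 11.65 on replicate 4 and between 11.26 and 11.30 on replicates 1, 2 and 3. This replicate is the array of slide 2, and its centred Tgfbr1 ratio was the only negative one of that probe. Before centring, the ratio was -0.051 on replicate 1 and -0.44 on replicate 4. Chance flags about 1 such set in 20.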

How the results depend on the processing

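Under 19 alternatives, 2 of them chosen after seeing the data (replicates 1 and 4 alone; every probe as its own feature), 0 receptor genes passed in each. In 4 of them the ratios are the same by construction (both filters, the t-test, every probe) and slide 1 alone equals leaving out replicate 4. In the other 14, 115 of 126 receptor ratios kept their direction. Those that turned were Acvr2a at 0.32 and Bmpr1a at 0.11 with the mean of all tested probes, Acvr2a at 0.024 with array weights, 0.0039 with the slide as a random block, 0.063 without replicate 1 and 0.0035 without replicate 3 (range without a replicate -0.043 to 0.063), Tgfbr1 at -0.031 with replicates 2 and 3 averaged, -0.040 without replicate 2, -0.022 without replicate 3 (range -0.040 to 0.23) and -0.22 with replicates 1 and 4 alone, and Bmpr2 at 0.35 with those. The median of the receptors was 0.19 with the mean of all probes, and between -0.040 and 0.063 with a replicate left out. Limma called 4127 features, 23.1%, with array weights, and no receptor, where the lowest adjusted p of a receptor was 0.051, for Acvr1b. These weights were 0.50, 2.31, 1.87 and 0.47 for replicates 1 to 4, so the correlated replicates 2 and 3 counted most. The count of features called was 0 with normexp and loess, with an offset of 50, with the stricter filter (above background in both channels on every array) and with replicates 2 and 3 averaged, 1 by the methods' t-test, 6 within slide 1, 4 with replicates 1 and 4 alone, and from 0 (without replicate 1, 2 or 3) to 6 (without replicate 4) with a replicate left out. The cause was not tested. The test of the ratios against 0 is a paired analysis, because both channels of an array form 1 pair. The methods' t-test did not use this pairing.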
